A study of Mus musculus with 2 samples.

Results

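Of 51142 fixed 1 kb windows of the mouse genome measured in both of 2 haploid embryonic stem cell lines, 498 (0.974%) had a mean CpG methylation level of at least 40% in A129-2 and also in AOS-14. These windows were chosen by those levels: a CpG was compared when it had at least 10 reads in each library, and a window was measured when it held at least 5 compared CpGs. The 498 windows hold 3413 of the 787963 compared CpGs that lie in measured windows. The strain of origin is 129Sv for A129-2 and C57BL/6 for AOS-14. Both lines are AG-haploid, taken here as androgenetic, with a single chromosome set from sperm, and both were derived with cell sorting and grown in ES cell medium. Each line gave 1 bisulfite library, so line and strain cannot be told apart and no value has a replicate check. Enrichment of some 100 Mb of target sequence and 50 bp reads from both ends are described in the protocol. The title instead gives reduced representation bisulfite sequencing, which starts from cuts at CCGG.

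Methylation of CpG cytosines is copied to new DNA strands by the methyltransferase Dnmt1 with its partner Uhrf1, and it is set anew by Dnmt3a and Dnmt3b. Mouse embryonic stem cells can lose much of it in culture, and mouse lines differ widely in how much they hold. Sequences known to keep methylation through losses of this kind include imprinted control regions and some families of transposable elements.

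The library of A129-2 held 153035567 read calls at CpGs and that of AOS-14 held 178315194. Averaged over all measured windows, A129-2 had 11.2% and AOS-14 had 18.3%. Windows of at least 40% numbered 516 in A129-2 and 6449 in AOS-14. Hence the 498 windows make up 96.5% of those of A129-2 and 7.72% of those of AOS-14.

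Sequence is shown first for the 2 places where the RefSeq tables at hand hold a hairpin or promoter over member CpGs. The first is Mir433, a microRNA gene that lies antisense to the coding gene Rtl1 in the imprinted Dlk1-Dio3 domain. The hairpin occupies chr12:109591715-109591838 on the plus strand of GRCm38.p6, and the compared CpGs of its window (chr12:109591719-109591839) all have their cytosine inside it. In the RefSeq hairpin the capitals mark the compared CpGs, the last of which has its guanine just past the end. In the mature forms they mark the seed, bases 2 to 8, which pairs with target RNAs.
Mir433 hairpin: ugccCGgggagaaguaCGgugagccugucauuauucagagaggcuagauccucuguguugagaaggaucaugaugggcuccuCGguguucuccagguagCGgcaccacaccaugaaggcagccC
mmu-miR-433-5p: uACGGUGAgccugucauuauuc
mmu-miR-433-3p: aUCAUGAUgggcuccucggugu

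Methylation of the Mir433 window averaged 46.5% in A129-2 and 60.6% in AOS-14, over 410 and 535 reads summed over its 5 CpGs. At base 17 of the hairpin, the CpG that falls in the seed of miR-433-5p, A129-2 had 35.8% (exact 95% interval 26.2 to 46.3, 95 reads) and AOS-14 had 65.1% (56.1 to 73.3, 126 reads). These intervals do not overlap, and they cover counting error only. At base 100, A129-2 had 64.8% (54.8 to 73.8) and AOS-14 had 76.1% (68.1 to 82.9), the highest of the 5 CpGs in each line. At base 5, with 29 reads in A129-2 and 30 in AOS-14, the levels were 51.7% and 43.3% and the intervals overlapped. Thus 4 of the CpGs were lower in A129-2 and the shallowest was higher.

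**Figure D1:**
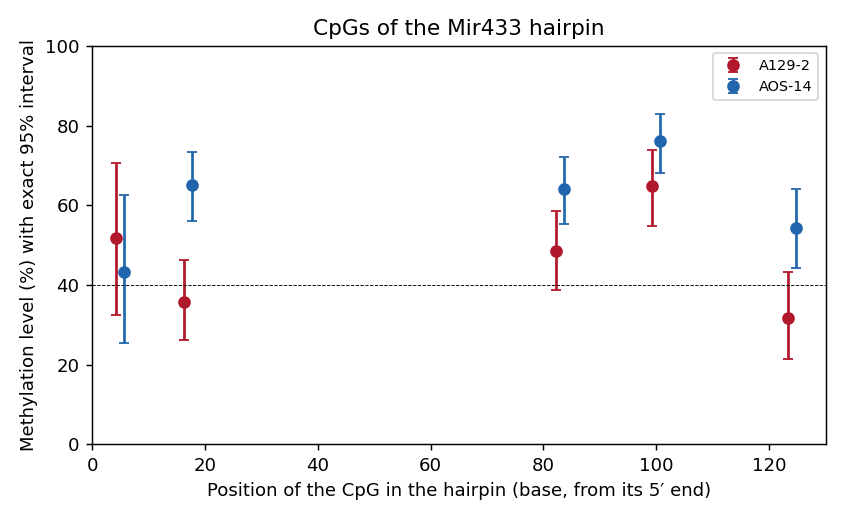
Methylation level in percent of the 5 compared CpGs of the Mir433 hairpin against their base position in it, with exact 95% intervals, for A129-2 (red) and AOS-14 (blue). The CpG at base 17 has 35.8% in A129-2 and 65.1% in AOS-14, and the dashed line stands at 40%.

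Of 30 microRNA hairpins with at least 5 compared CpGs, Mir433 was the 1 at 40% or more in both lines. With any number of compared CpGs there were 3, the others being Mir3547 and Mir7677 with 1 CpG each. The other measured windows inside Rtl1, a gene derived from a retrotransposon, lay under the threshold in A129-2. The window at chr12:109593015-109593717 had 38.1% in A129-2 against 61.4% in AOS-14, while 32.5% and 54.4% were found at chr12:109594679-109594944 and 22.3% and 33.8% at chr12:109585901-109585977. Upstream in the same domain the window at chr12:109526678-109526737, in the predicted gene Gm34081, had 8.96% in A129-2 and 37.3% in AOS-14. Another upstream window in Gm34081, chr12:109496272-109496920, had 23.5% against 31.9%, so in A129-2 it stood above the lowest of the Rtl1 windows.

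The second sequence is the promoter of Gm36027, a predicted gene inside Pitpnb, which encodes a phosphatidylinositol transfer protein. It was the 1 promoter of 32851 in the RefSeq table whose sequence overlaps compared CpGs of a member window. The stretch is chr5:111355842-111356141 on the plus strand, with the 3 compared CpGs in capitals.
Gm36027 promoter: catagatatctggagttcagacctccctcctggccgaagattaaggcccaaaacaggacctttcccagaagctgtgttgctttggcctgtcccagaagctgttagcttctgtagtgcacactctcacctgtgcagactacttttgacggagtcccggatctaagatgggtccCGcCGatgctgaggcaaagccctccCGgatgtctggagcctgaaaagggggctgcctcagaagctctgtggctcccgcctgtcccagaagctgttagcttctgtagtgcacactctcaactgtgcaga

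Methylation in the window of this promoter averaged 54.5% in A129-2, against 72.4% in AOS-14. The 3 CpGs inside the promoter are part of that window. At base 173 the levels were 38.2% in A129-2 (32.4 to 44.3, 272 reads) against 60.2% in AOS-14 (52.7 to 67.4, 181 reads). At base 176 they were 55.2% in A129-2 (49.0 to 61.2, 272 reads) against 74.2% in AOS-14 (67.1 to 80.4, 178 reads). At base 198 they were 40.98% in A129-2 (32.2 to 50.2, 122 reads) against 51.0% in AOS-14 (42.6 to 59.4, 145 reads), with overlapping intervals. All 3 were lower in A129-2, and only base 176 stood above the window's mean in either line. The promoter holds a stretch of 42 bases a second time 164 bp further on, which 101 of the 32851 promoters (0.307%) do at that length. The repeated stretch lies on both sides of the 3 compared CpGs.

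By construction no member lies under 40%, and most lie close to it in A129-2. The mean over the 498 windows was 46.3% ± 6.20 in A129-2 and 61.6% ± 8.38 in AOS-14 (SD over windows, which is not an error between cultures). In A129-2 the levels ran from 40.01% over a median of 44.4% to 76.8%, and in AOS-14 from 40.1% over 61.7% to 82.4%. The mean difference was -15.3 points, with a range of -37.9 to 13.4. The ratio of the means, A129-2 over AOS-14, was 0.752 in members and 0.615 over all windows. These values were set by the rule and are given as a description.

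**Figure D2:**
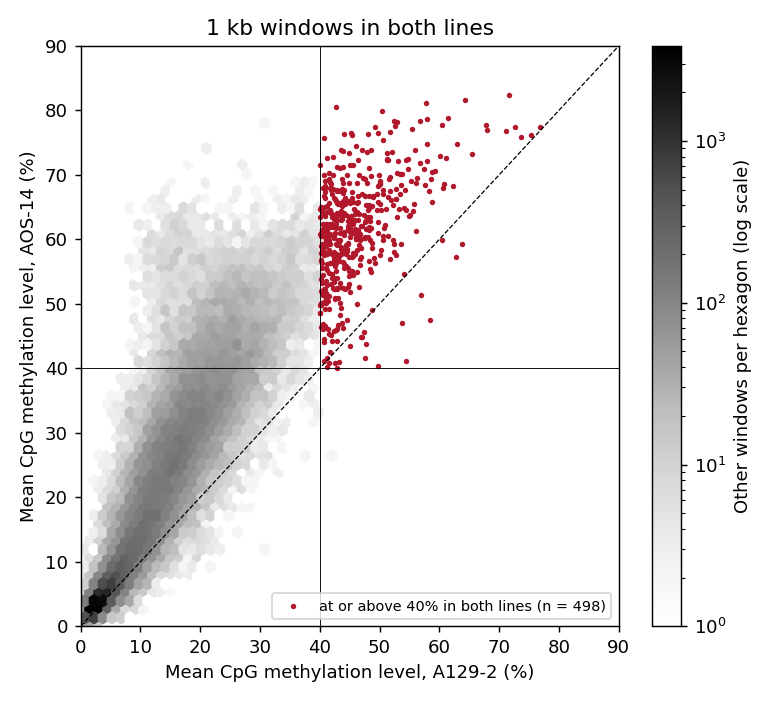
Mean CpG level in percent of each 1 kb window in A129-2 (horizontal) and AOS-14 (vertical). Red points are the 498 windows at 40% or more in both lines, grey hexagons count the other windows on a log scale, and the dashed line marks equal levels. Most red points stand above the dashed line, close to the 40% line of A129-2.

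On the summed reads of each window, 48 members (9.64%) were called lower in A129-2 and 0 were called higher (Fisher's exact test, Benjamini-Hochberg adjusted p under 0.05 over all windows, and at least 25 points). The background over all 51142 windows was 5.04% called lower and 0.0137% called higher. Since the rule used the same levels, nothing is read from these shares. With the adjusted p alone, 418 members were lower and 1 was higher in A129-2, beside a background of 55.1% and 1.14%. It is the 2 libraries, not the strains, that such a test compares. The test also takes a read over several CpGs as that many independent counts.

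The lines came closer together where A129-2 was higher, as a description within windows selected on both levels. The sets were cut on the A129-2 level, which is itself part of the difference, so nothing is read from this trend. The 272 members of 40% to 45% in A129-2 averaged 42.2% in that line and 58.7% in AOS-14. The 21 members of at least 60% in A129-2 averaged 65.9% there and 73.0% in AOS-14. Reads moved with this order: the median ratio of reads, A129-2 over AOS-14, was 0.711 in the first of these sets and 0.549 in the second. The part of the read ratio in the difference was not tested.

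Counting error leaves the membership of many windows uncertain at this depth. Reads per member, summed over its CpGs, ran from 52 over a median of 599 to 14738 in A129-2. In AOS-14 they ran from 59 over 819 to 32899. A read over several CpGs counts at each, so the intervals can be too narrow. The lower bound of the exact 95% interval of the read-weighted level was above 40% in both lines for 209 members (41.97%), and in AOS-14 for 474. Just inside the threshold, a window in Gnai1, which encodes a G protein subunit (chr5:18346227-18346401), had 40.01% in A129-2 and 60.8% in AOS-14. Also just inside were chr1:79944135-79944283 with 40.02% and 64.7%, and chrX:30224061-30224101 with 40.1% and 63.5%. Just outside were chr12:77959049-77959133 with 39.98% in A129-2 and 68.0% in AOS-14, chrX:54021666-54021779 with 39.97% and 49.3%, and chr14:119956102-119956227 with 39.96% and 63.9%.

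Single CpGs inside the members were mostly partly methylated. In A129-2, 59.95% of the 3413 CpGs had a level of 40% up to 80%, 3.96% reached 80% and 2.17% were under 10%. In AOS-14 the same classes held 73.6%, 14.2% and 0.527%. Of the CpGs, 3056 (89.5%) were lower in A129-2, against 55.2% of the compared CpGs of all windows. A higher level in A129-2 was found at 9.61% of them, against 22.6%. The rule used the levels of the member CpGs, and 72.7% of the compared CpGs of all windows were under 10% in A129-2. Nothing is therefore read from these contrasts. Levels varied within a window, with a median SD between its CpGs of 17.03 points in A129-2 and 14.7 points in AOS-14.

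Features other than the level are given beside all windows as a description, with no test. Members were poor in CpGs and rich in CCGG. They held a median of 6 compared CpGs, against 8 in all windows, at a density of 3.53 per 100 bp, against 4.87. The number of CpGs is tied to the rule, which sets a minimum on it. The share of windows that were members was 1.33% at a minimum of 3 CpGs and 0.207% at 10. CCGG sites made up 39.2% of the compared CpGs of members and 23.9% of those of all windows. Inside members the level at CCGG was 47.7% in A129-2 and 64.2% in AOS-14, and outside CCGG it was 45.1% and 59.7%. Over all windows the gap between motif and other sites was wider, since CCGG sites had 16.7% in A129-2 against 23.5% in AOS-14, and other sites had 3.74% against 6.63%. Among bases around the CpG, tCGa took 6.77% of member CpGs against 2.02% of all, and cCGc took 13.4% against 26.5%.

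The members lay away from genes. They overlapped a RefSeq gene in 174 cases (34.9%), against 71.1% of all windows. The median distance to the nearest gene end was 15.5 kb, against 2.57 kb, and 17 members (3.41%) lay within 1 kb of a gene end, against 40.04%. Of the 487 members with a measurable distance, 3 (0.616%) lay within 1 kb of a RefSeq start site, against 31.4%. Chromosome 11 had 17 members among 3911 windows, while chromosome 3 had 33 among 2293.

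The X chromosome held the highest share of members. There 55 of 1817 measured windows (3.03%) were members, against 443 of 49222 (0.900%) on the autosomes. Restricted to windows over 10 kb from a gene end, the shares were 4.13% on X and 2.04% on the autosomes. The X windows as a whole were also higher, with a mean of 14.7% in A129-2 and 25.3% in AOS-14, against 11.1% and 17.98% on the autosomes. Members on X had a median of 67.5 reads per CpG in A129-2 and 84 in AOS-14, against 91.5 and 129 on the autosomes. Of 100 measured windows on Y, 0 were members. A single chromosome set from sperm holds X or Y, yet windows on both were measured in these lines. Whether the reads placed on Y come from Y was not tested.

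**Figure D3:**
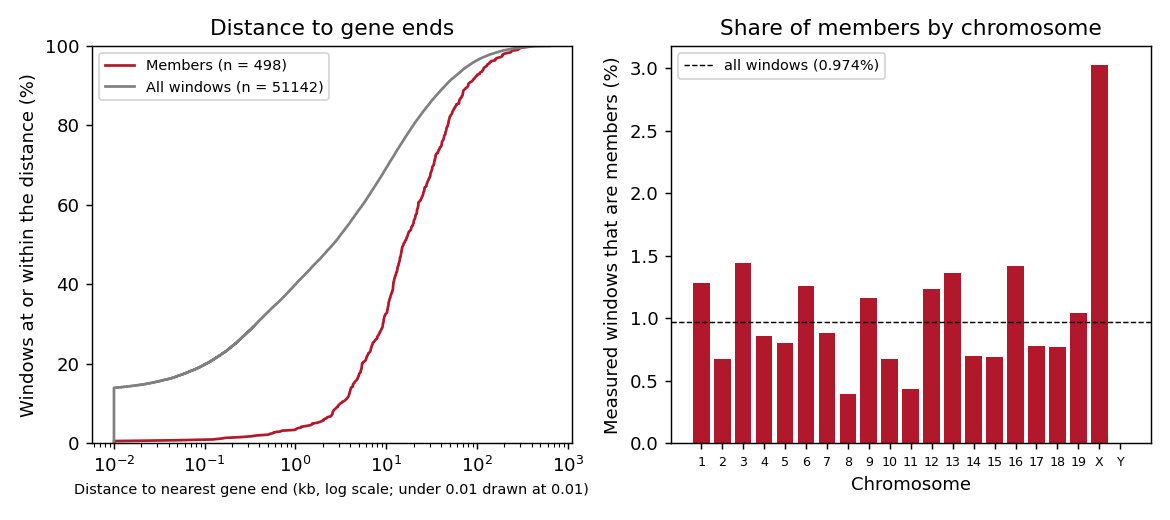
Left, cumulative share in percent of windows within a given distance in kb (log axis) of the nearest gene end, for the 498 members (red) and all 51142 windows (grey). Right, percent of the measured windows of each chromosome that are members, with a dashed line at 0.974% for all windows. The red curve runs to the right of the grey one, and X has the tallest bar at 3.03%.

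Many members shared the spacing of their CpGs with other windows. A run of 5 compared CpGs with the same steps was found in at least 1 other member for 128 members (25.7%). With any other window, 182 members (36.5%) shared such a run, against 28.2% of all windows. No repeat annotation was used, so the element behind a spacing is not named here.

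The spacing found in the most members, of the 3 described here, is 7 CpGs over 194 bp, with cytosines at 0, 4, 28, 33, 109, 153 and 192 bp from the first. It was picked after the levels of members were seen, so its share is a description. With at least 5 of these CpGs and at most 1 other required, 135 copies were found on 20 chromosomes. Of these copies, 76 (56.3%) lay in 77 member windows, which are 15.5% of the members. The bases next to the CpGs, read from the deposited local sequence on all chromosomes but 18, could be read in only part of the copies. They are shown because they let the copies be compared beyond the spacing, with CpGs in capitals and the distance from the first cytosine in the name.
From -2 bp: acCGggCGat
From 26 bp: ttCGaacCGgc
From 107 bp: gcCGga
From 151 bp: acCGag
From 190 bp: acCGga

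Each base of 4 of these stretches was the same in 100.0% of the copies read there, at least 68, 44, 65 and 41 of 135 in the order shown. In acCGag the least shared base was found in 51.6% of copies, with at least 58 read. The median level of the copies was 43.0% in A129-2 (range 26.3 to 55.8, SD 4.09 over copies) and 61.2% in AOS-14 (48.7 to 76.5, SD 4.29), and all 135 were lower in A129-2. Single positions differed in level and in how much copies varied there. The CpG at 192 bp had 61.7% ± 4.59 in A129-2 and 80.9% ± 3.54 in AOS-14 over 129 copies. The CpG at 153 bp had 12.97% ± 3.42 in A129-2 and 23.3% ± 3.94 in AOS-14 over 126 copies. The CpG at 28 bp had 57.9% ± 8.51 in A129-2 and 74.0% ± 7.86 in AOS-14. The first CpG varied most between copies, with 39.4% ± 16.1 in A129-2 and 58.1% ± 18.5 in AOS-14 over 100 copies. The CpG at 33 bp had 45.6% ± 11.8 and 68.1% ± 11.3, that at 4 bp 41.97% ± 8.30 and 61.7% ± 8.35, and that at 109 bp 39.4% ± 7.11 and 60.1% ± 6.51.

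**Figure D4:**
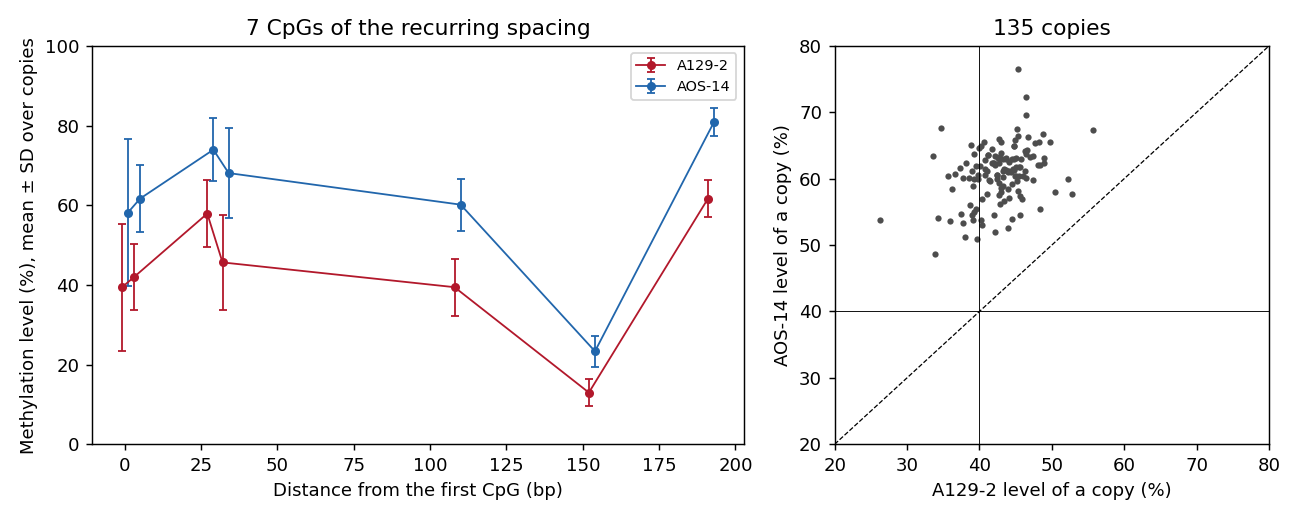
Left, methylation level in percent (mean ± SD over copies) of the 7 CpGs of the recurring spacing against distance from the first CpG in bp, for A129-2 (red) and AOS-14 (blue). Right, level of each of the 135 copies in A129-2 and AOS-14, with solid lines at 40% and a dashed line of equal levels. Both lines dip at 153 bp, to 12.97% in A129-2 and 23.3% in AOS-14, and every copy stands above the dashed line.

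The same order of positions held in both lines at the ends, with the CpG at 192 bp highest and that at 153 bp lowest. Members with a copy averaged 44.04% in A129-2 and 61.2% in AOS-14, and the 421 members without one averaged 46.7% and 61.7%. Members with a copy lay a median of 20.1 kb from a gene end and 15.6% were inside a gene, against 14.9 kb and 38.5% for those without. The median reads per CpG of the 135 copies were 128 in A129-2 and 210 in AOS-14. The 15 copies on X had 36 and 30 reads.

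Another spacing, 6 CpGs over 93 bp, had copies of widely differing level, from 0% to 76.8% in A129-2 and from 0% to 77.5% in AOS-14. It joins 3 of the members with the highest levels, chr15:25052738-25052830, chr15:50626574-50626666 and chr15:60802417-60802509. Of its 150 copies 7 lay in members, and the median over copies was 24.3% in A129-2 and 37.6% in AOS-14. On chromosome 10 the 29 copies had a median level of 20.8% in A129-2, against 31.3% in AOS-14, at 2039 and 2576 reads per CpG. The 8 copies on chromosome 15 divided into 4 in member windows and 4 others. The members were the 3 windows above and a copy at chr15:65667935-65668027 with 70.1% in A129-2 and 74.7% in AOS-14, and their copies had medians of 26.5 to 34.5 reads per CpG in A129-2 and 92 to 117 in AOS-14. The other 4 ran from 17.8% to 27.2% in A129-2 and from 26.8% to 39.3% in AOS-14, at 72 to 796 and 66 to 907 reads per CpG. The part of depth in these levels was not tested. A further spacing of 8 CpGs over 90 bp had 783 copies, of which 16 lay in members. Its copies had a median of 16.9% in A129-2 and 56.6% in AOS-14.

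Smaller sets of members joined by shared spacing were found close together on a chromosome or spread over several. A set of 8 members on 6 chromosomes averaged 52.8% in A129-2 and 67.7% in AOS-14, and they include a window in Plcxd3. A set of 7 members on X, between 28188009 and 35173739, averaged 44.2% and 63.2%, and all lie in predicted or unnamed genes such as Gm42175 and E330016L19Rik. A set of 3 members on chromosome 2, between 90233125 and 90389523 near the olfactory receptor genes Olfr1565 and Olfr1274, averaged 58.8% and 71.9%.

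The 8 windows with the highest mean of both lines include the 3 on chromosome 15 named above. At chr15:60802417-60802509, 16.5 kb from Lratd2, the level was 76.8% in A129-2 from 158 reads and 77.5% in AOS-14 from 653 reads. At chr15:50626574-50626666, 28.1 kb from the transcription factor gene Trps1, it was 72.6% and 77.5%, and at chr15:25052738-25052830 it was 71.2% and 76.9%. In these 3 windows A129-2 had few reads beside AOS-14, with a median ratio of 0.269. More reads covered a window in Cep128, which encodes a centrosomal protein. There, at chr12:91230077-91230202, the level was 71.7% in A129-2 from 862 reads and 82.4% in AOS-14 from 1545 reads, and each of its 6 CpGs was lower in A129-2. A window in Tln1, which encodes talin, a link between integrins and actin, had 67.8% in A129-2 from 1081 reads and 77.7% in AOS-14 from 1512 reads (chr4:43543447-43543806). At chr1:189070066-189070168 57 reads of A129-2 gave 75.4% and 402 reads of AOS-14 gave 76.1%. The remaining windows of this set, chr3:22285034-22285082 and chr11:16227620-16227756, had 73.6% and 64.3% in A129-2 against 75.9% and 81.6% in AOS-14.

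The 4 largest differences between the lines were at windows lower in A129-2 and outside genes. At chr8:97406767-97406997, 20.7 kb from Gm5913, the 10 CpGs averaged 42.7% in A129-2 from 1051 reads and 80.6% in AOS-14 from 781 reads, and each was lower in A129-2. At chr7:48525133-48525244, 25.7 kb from the mast cell receptor gene Mrgprb2, the levels were 40.7% and 75.7%. At chr3:131875438-131875628 they were 44.1% and 76.3%, and at chr17:38348011-38348115, 11.9 kb from the olfactory receptor gene Olfr136, 41.2% and 72.7%.

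In the other direction, 19 members had a higher mean in A129-2, and 1 of them passed the adjusted p. This window, chr14:12074538-12074659 in Ptprg, which encodes a receptor-type tyrosine phosphatase, had 58.5% in A129-2 from 101 reads against 47.4% in AOS-14 from 229 reads, and on summed reads 63.4% against 42.4% (adjusted p = 0.00129 by Fisher's exact test). Within it 2 of the 5 CpGs were lower in A129-2, and the levels of single CpGs there ran from 0% to 79.2% in A129-2. At chrX:112480290-112480414 the mean over CpGs was 54.5% in A129-2 against 41.1% in AOS-14. On the summed reads, which the test compares, the levels there were 28.8% (25.5 to 32.3) and 24.3% (21.2 to 27.7), both under 40% (adjusted p = 0.1 by Fisher's exact test). At chr11:33197690-33197816, 2.94 kb from the homeobox gene Tlx3, the levels were 49.7% and 40.4%, and at chr13:61422074-61422207 they were 53.8% and 47.0%. These last 3 did not pass.

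A few members held many CpGs. At chr18:64049011-64049879 the window had 32 CpGs, which averaged 40.7% in A129-2 against 58.9% in AOS-14. In Atxn1, which encodes ataxin 1 (chr13:45567053-45567960), 23 CpGs had 44.6% and 47.5%. In the predicted gene Gm31227 (chr14:68477062-68477912), 22 CpGs had 53.8% in A129-2 from 14738 reads and 70.2% in AOS-14 from 22250 reads, and each CpG was lower in A129-2.

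Members near a gene of the lists are given beside the share over all genes, with no test. Of 38 measured olfactory and vomeronasal receptor genes, 4 had a member window in them or within 1 kb, all of them vomeronasal type 2 pheromone receptor genes. Vmn2r78 had 49.8% in A129-2 and 62.7% in AOS-14, Vmn2r1 had 46.3% and 63.0%, Vmn2r62 had 43.2% and 57.4%, and Vmn2r60 had 40.7% and 44.1%. The share over all genes with a measured window was 184 of 21024 (0.875%). Of 313 measured Zfp genes 2 (0.639%) had a member, too few to set apart from the 0.875% over all genes. They were Zfp978 with 51.4% in A129-2 from only 70 reads and 60.5% in AOS-14 from 1309 reads, and Zfp558 with 40.5% and 46.9%.

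Of the 10 loci listed as methylated on the paternal allele, Rtl1 was the 1 with a member. The 31 measured genes of the list methylated on the maternal allele had 0. There were also 0 among the 47 germline genes, 45 Hox genes, 41 clustered protocadherins, 34 genes of X-linked germline families, 22 genes of the DNA methylation machinery, 17 naive pluripotency genes, 13 housekeeping genes, 10 trophoblast genes and 10 immune and tissue-restricted genes that were measured. With a share of 0.875% over all genes, lists this short are too small for anything to be read from these counts.

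Windows beside a member were also above the level of windows beside any window. Only neighbours that were not members themselves were taken, so the rule bounds their levels too. The 95 measured non-members that directly adjoin a member averaged 26.0% ± 7.44 in A129-2 and 45.4% ± 12.3 in AOS-14. The same over the neighbours of all windows was 6.90% and 11.0%. At 2 to 10 windows away the neighbours of members had 19.7% in A129-2 and 34.3% in AOS-14, and beyond that 14.8% and 25.3%. Beside any window the levels were 11.62% and 18.48% at 2 to 10 windows, and 12.07% and 20.07% beyond. Autosomal windows over 10 kb from a gene end averaged 16.81% in A129-2 and 28.71% in AOS-14. Neighbours of members stood above these values at 2 to 10 windows and below them beyond. The neighbour sets were not matched for gene distance, and its part in these levels was not tested. Members themselves seldom touched, with 484 standing alone and 7 adjoining pairs. The first pair, chr13:49973506-49973965 and chr13:49974022-49974878 near Gm6554, had 46.4% and 45.9% in A129-2 against 61.3% and 63.9% in AOS-14. Another, at chr13:50812281-50812966 and chr13:50813023-50813963 near Gm2654, had 44.7% and 42.2% in A129-2 against 62.9% and 61.9% in AOS-14. The last, at chr7:103296852-103296969 and chr7:103297375-103297568 near Olfr596, had 50.1% and 45.5% against 57.5% and 58.0%.

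**Figure D5:**
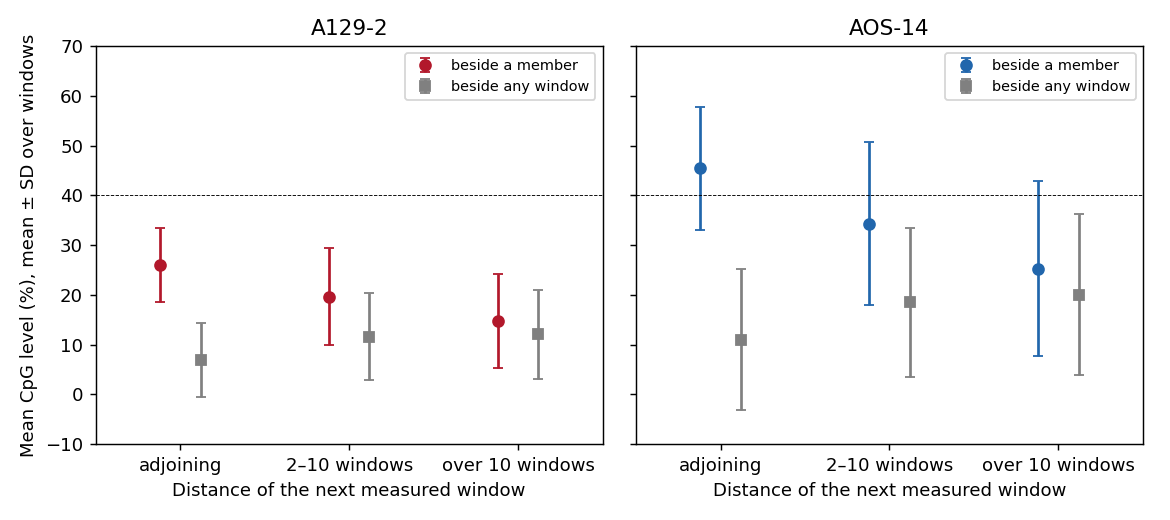
Mean CpG level in percent (mean ± SD over windows) of the next measured window that is not a member, by its distance, beside a member (coloured) and beside any window (grey), in A129-2 (left) and AOS-14 (right). Windows adjoining a member average 26.0% in A129-2 and 45.4% in AOS-14, against 6.90% and 11.0% beside any window.

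CpGs inside members that were too shallow for the rule gave a second reading. Taking CpGs read 5 times or more in each library but under 10 times in at least 1, there were 236, which averaged 33.9% in A129-2 and 51.3% in AOS-14. The same kind of CpG in the other windows, 46599 in number, averaged 7.20% and 10.3%. Both values in members are below the member means of 46.3% and 61.6%.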

How the data were processed

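Bisulfite reads of 1 library per line were analysed, A129-2 and AOS-14. The build was mm10 and the tool listed was BSMAP, per the submitters' processing notes. Its version, read trimming, duplicate removal and the handling of reads that map to several places were not given in the sources used here. For each CpG the authors deposited a methylation level as a fraction, with counts of all and of methylated reads over both strands, per the file headers. Percent levels given here were computed anew from the deposited read counts. The largest gap to the deposited fraction was 0.0005. A window level is the mean over its compared CpGs. The difference is A129-2 minus AOS-14.

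All 51142 windows were tested on summed reads by a two-sided Fisher's exact test and adjusted over all of them by Benjamini-Hochberg. A call needed an adjusted p under 0.05 and at least 25 points. Intervals are exact 95% (Clopper-Pearson) and, like the tests, cover counting error only. For a window the reads are summed over its CpGs, so a read over several CpGs is counted at each. Window tests and intervals take these counts as independent and can overstate the certainty where reads span several CpGs. The window test was also checked on simulated data. Gene positions and sequences came from RefSeq tables of GRCm38.p6, the assembly of mm10. A gene is named by overlap or as the nearest one, and a gene list counted windows within 1 kb. Runs of shared spacing had steps of at most 100 bp and a span of at least 60 bp.

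The windows named are the 8 with the highest mean of the lines, the 4 with the largest difference in each direction, the 4 with most CpGs, those near list genes, 3 runs of adjoining members and the 3 nearest the threshold on each side. Not every window picked in this way is reported here. The spacings were picked with their values in view. The members and lists were chosen with earlier results of these data known. Alternatives varied reads, CpGs, weighting, window bounds, threshold, motif, spacing, depth and chromosomes. Software was Python 3.11.15, scipy 1.17.1, numpy 2.4.6, matplotlib 3.10.9 and pandas 2.3.3.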

Additional observations from a re-analysis of the deposited data

How the results depend on the processing

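No member set found under an alternative had a mean difference of the other sign. Each set was again chosen on the levels of these 2 libraries, so nothing is read from the shared sign. The 498 windows became 317 at 30 reads per CpG, 1258 at 3 CpGs per window, 47 at 10 CpGs, 1026 at a threshold of 35%, 101 at 50% and 125 from CpGs outside CCGG alone. The mean difference of -15.3 points became -14.4 at 5 reads, -15.9 at 20 reads, -16.5 at 30 reads, -13.2 at 3 CpGs, -14.5 with levels weighted by reads, -12.8 at a threshold of 50%, -14.6 outside CCGG and -14.9 without the 7-CpG spacing, an alternative chosen after seeing the data. The 48 calls lower in A129-2 became 30 at 30 reads, 84 at 3 CpGs, 5 at 10 CpGs, 31 with levels weighted by reads, 107 at a threshold of 35%, 4 at 50%, 6 outside CCGG, 418 with no minimum on the difference and 267 at 15 points. The 0 calls higher became 1 at 5 reads, at 3 CpGs and with no minimum on the difference. Windows next to members differed by -12.2 points, which became -13.1 at 3 CpGs and -11.9 with levels weighted by reads. Where fewer CpGs or windows were tested the count changed by construction, and otherwise the cause was not tested. Of the 498 windows, 363 were kept with levels weighted by reads, 360 at 20 reads and 470 without recurrent spacing. No paired analysis was possible because there is 1 library of each line. With 1 library per line, strain, line, culture and library cannot be told apart. Depth limits the placement of windows near the threshold.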
